A study of Mus musculus with 6 samples.

Results

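NRF2 (encoded by Nfe2l2) is the transcription factor that switches on genes of the antioxidant and glutathione defence. The present account follows 10 genes of this programme in mouse cells labelled primary microglia after co-culture with neutrophils from injured spinal cord. The 10 genes were given by name, as Nfe2l2 itself, 8 antioxidant genes counted among its targets (Nqo1, Gclc, Gclm, Slc7a11, Txnrd1, Srxn1, Gsr and Prdx1) and Sod2. All 10 were found, by gene identifier, among the 55335 identifiers of the expression table, and 9 of them reached the minimum mean level of 1 FPKM (mapped fragments counted per kilobase of transcript and per 1000000 fragments in the library) that was required for a test. Nqo1 did not.

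The microglia were grown from the brains of neonatal C57BL/6 mice, shaken off the culture flask on day 14, co-cultured for 24 h with neutrophils, and then recovered by flow sorting for RNA sequencing. The neutrophils were taken by magnetic sorting from the lesion of mice with spinal cord injury (SCI) at 3 days post injury (dpi). The donors were either Cd177 WT or Cd177 KO mice, CD177 being a surface protein carried by a subset of neutrophils. The microglia themselves carried the same WT genotype in both groups, and both groups met neutrophils, so that no group shows microglia alone. Per the methods of the study, all animals were male, and the injury was made with an impactor at T10. There were 3 libraries with WT neutrophils and 3 with KO neutrophils, called WT and KO below. Whether the replicates came from separate cultures or donors is not stated in the sources used here, so the p-values measure only the spread between these libraries.

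In resting cells NRF2 is bound by KEAP1 and handed to the proteasome. Electrophiles and oxidants relieve this, and NRF2 then pairs with a small MAF protein on antioxidant response elements near its target genes. The targets supply cystine for glutathione (Slc7a11), join the amino acids of glutathione (Gclc and Gclm), return oxidised glutathione and thioredoxin to the reduced form (Gsr and Txnrd1), and remove peroxides (Prdx1 and Srxn1). In microglia and macrophages the same cells make oxidants and nitric oxide on activation, and Sod2 and Slc7a11 are also known targets of inflammatory and amino acid stress signals.

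All values below are FPKM, which are given per length, so levels of different genes can be set side by side. Differences are KO minus WT on the log2(FPKM + 1) scale, tested by limma over all 11395 genes that reached this level, and called at a Benjamini-Hochberg adjusted p under 0.05. This scale understates the change of low genes. Over all tested genes 43.3% were called, 24.5% higher and 18.8% lower in KO, so that a call by itself was common. The summed FPKM was 314084.9 to 315632.4 in WT and 323588.4 to 326868.0 in KO, and mitochondrial genes took 11.1 to 11.32% of it in WT and 14.31 to 14.62% in KO. Depth is not given with FPKM. Read from the steps between low values it was about 15.7 to 19.4 per library in units of 1000000 fragments. On the TPM scale, where every library has the same sum, 54.9% of all calls were lower in KO instead of 43.4%, and the median log2 difference of all genes moved from 0.02 to -0.02.

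The labelled cell type was checked against markers. Of 17 microglia markers, 12 stayed under 1 FPKM in every library, P2ry12, Tmem119, C1qb and Aif1 among them, and Sall1, Fcrls and C1qa were at 0 in all. These markers therefore do not bear out the labelled cell type, and microglia is used here as the name the labels give. The 5 that were tested were all called, 4 higher and 1 lower in KO: Trem2 rose from 12.0 ± 1.05 to 28.0 ± 0.364 FPKM, Tyrobp and Csf1r also rose, and the fractalkine receptor gene Cx3cr1 fell from 2.74 ± 0.296 to 1.14 ± 0.251 FPKM. The summed level of the microglia markers was 307.0 to 311.3 FPKM in WT and 379.9 to 416.7 FPKM in KO. All 12 markers shared with other macrophages were tested, and 4 were higher (Cd68, Ctsd, Lamp1 and Spi1), 4 lower (Cd14, Adgre1, Mpeg1 and Fcer1g) and 4 not called. Among them Cd14 fell from 474 ± 7.001 to 136 ± 1.66 FPKM and Adgre1 from 101 ± 2.67 to 39.3 ± 1.56 FPKM, while their summed level was 3430 to 3488 FPKM in WT and 3479 to 3566 FPKM in KO. The part of these marker differences in the results below was not tested. Of 16 neutrophil markers, 15 stayed under 1 FPKM in every library and 7, Ly6g and S100a9 among them, were at 0 in all. The summed level of the neutrophil markers was 9.25 to 9.38 FPKM in WT and 1.76 to 2.40 FPKM in KO, and its part in the results below was not tested. The gelatinase gene Mmp9 made up most of it in WT, at 7.08 to 7.21 FPKM, and was at 0.770 to 1.13 FPKM in KO. All 13 astrocyte and oligodendrocyte markers and all 7 neuron and endothelial markers were under 1 FPKM. Cd177 was at 0.022 to 0.477 FPKM in the 6 libraries, too low to check the neutrophil genotype.

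The 10 genes did not move as a block. Of the 9 tested, 7 were called (77.8%, against 43.3% of all tested genes), with 4 higher in KO (Gclc, Prdx1, Nfe2l2 and Txnrd1) and 3 lower (Slc7a11, Sod2 and Gclm). When only genes averaging at least 5 FPKM were tested, 3763 of 7383 were called, and again 7 of the set. The difference did not pass for Srxn1 or Gsr. On the TPM scale 3 were higher and 4 lower, since Txnrd1 no longer passed and Gsr passed as lower. The balance of directions in the set thus turned on that scale. It stayed at 4 higher and 3 lower with a common sum without mitochondrial genes, median centring or quantile normalization. The cystine importer Slc7a11 and the mitochondrial superoxide dismutase Sod2 fell by more than 2-fold, while Gclc, the catalytic subunit of the rate-limiting enzyme of glutathione synthesis, rose 1.64-fold. The median log2 difference of the 9 genes was -0.03, beside 0.02 over all tested genes, and their median absolute difference was 0.32, beside 0.17. The 9 lay at the 50.6 to 97.5 percentile of level. Since the log2(FPKM + 1) scale understates low genes, these comparisons with all tested genes are not matched for level. The 3 WT and the 3 KO values did not overlap for 7 of the 9, and 55.8% of all tested genes showed no overlap. Being both called and changed more than 2-fold was rarer, at 2.53% of all tested genes, and applied to 2 of the 9, Slc7a11 and Sod2. In bulk RNA, fewer cells that express a gene and less RNA per cell cannot be told apart.

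**Figure D1:**
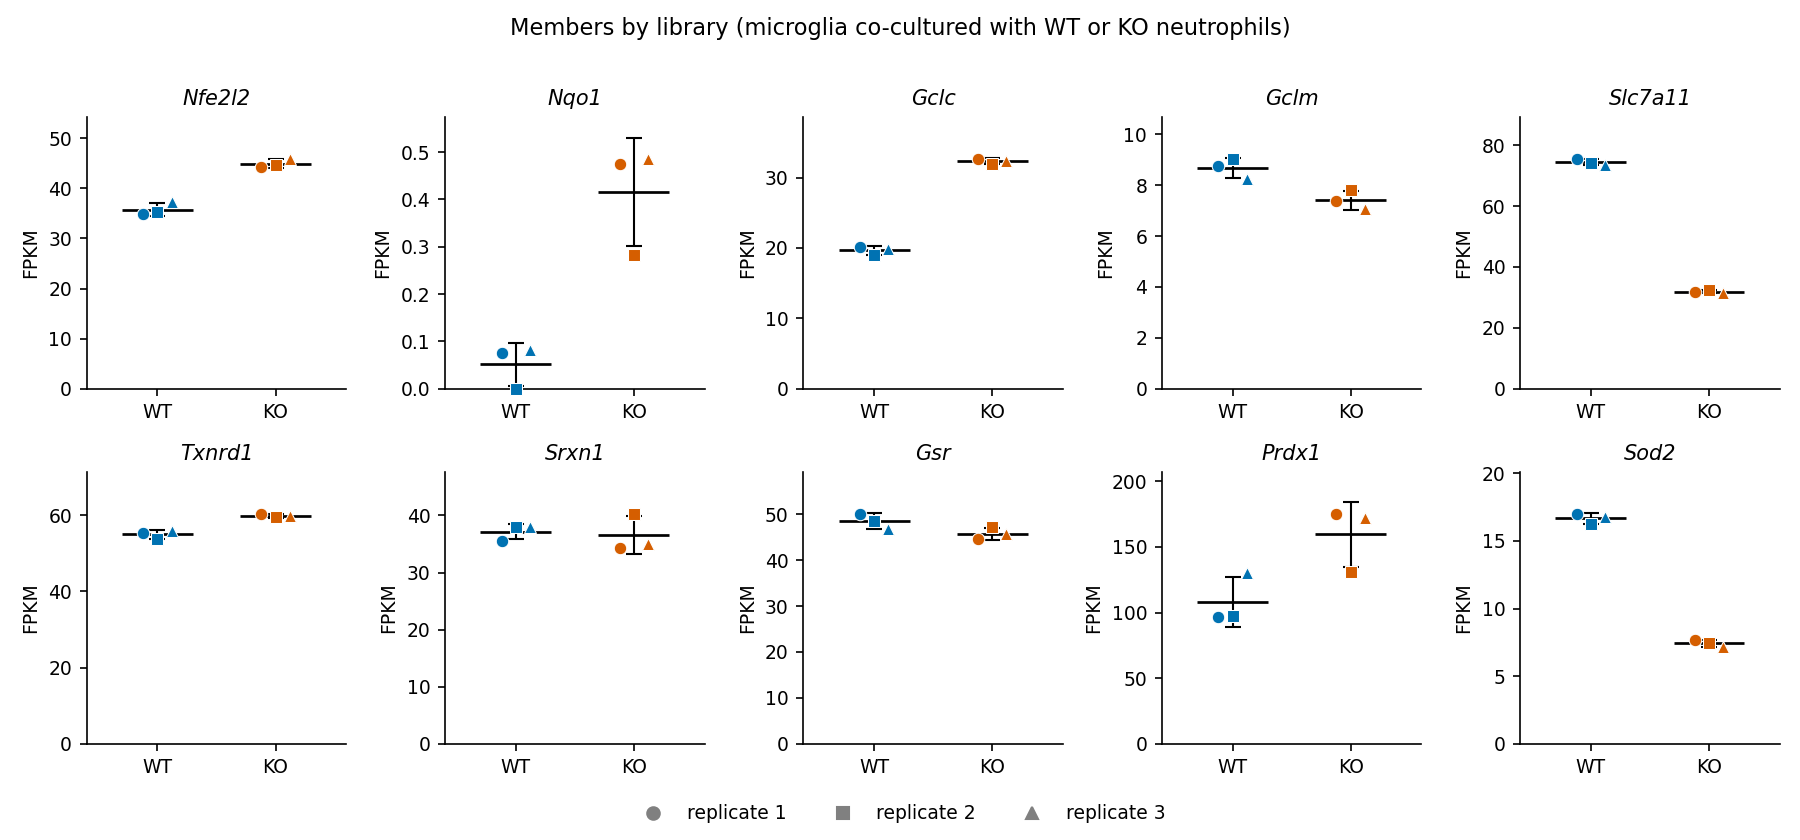
FPKM (vertical axes, each from 0) of the 10 genes in the 3 WT and 3 KO libraries. Points are libraries, lines the means and bars 1 SD; Slc7a11 and Sod2 sit far lower in KO and Gclc far higher, Srxn1 and Gsr overlap, and Nqo1 stays under 0.5 FPKM.

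The regulator came first. Nfe2l2 (ENSMUSG00000015839, chromosome 2, 75675513 to 75704641, minus strand, GRCm38 in GENCODE M21) was at 34.8, 35.3 and 37.2 FPKM in WT and at 44.3, 44.6 and 45.9 FPKM in KO. All KO libraries were above all WT libraries. The mean was 35.8 ± 1.27 FPKM in WT and 44.9 ± 0.889 FPKM in KO (SD, n = 3 per group), and the log2 difference was 0.32 (SE 0.0332, limma adjusted p = 0.000516). NRF2 is controlled mainly through the stability of its protein, which was not measured here, so this is a difference in its mRNA alone.

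Because NRF2 acts through a short DNA element, the start regions of the 10 genes were read from RefSeq (GRCm38.p6, from 250 bases before to 50 after the start). For 8 of the 10 genes there was a window, and 10 windows in all, since Txnrd1 has 3. The core of the antioxidant response element, TGACNNNGC on either strand, was found in 5 of the 10 windows. It was also in 12.4% of all 32851 RefSeq start windows read, which left out 1 chromosome. The 5 belong to Nfe2l2, Gclm, Txnrd1, Srxn1 and Prdx1. The stretches around the match upstream of the start are shown here for 4 of them, because they set Nfe2l2, Txnrd1 and Prdx1, which were higher in KO, beside Gclm, which was lower. The capitals mark the match.
Nfe2l2, chr2:75704879-75704913, minus strand: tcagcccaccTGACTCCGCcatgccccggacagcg
Gclm, chr3:122245407-122245447, plus strand: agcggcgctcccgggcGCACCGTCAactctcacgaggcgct
Txnrd1, chr10:82859098-82859138, plus strand: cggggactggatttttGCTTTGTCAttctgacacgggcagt
Prdx1, chr4:116685450-116685490, plus strand: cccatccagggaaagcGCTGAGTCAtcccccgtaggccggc
The matches begin 240, 134, 92 and 133 bases before the start of Nfe2l2, Gclm, Txnrd1 and Prdx1. That of Prdx1 overlaps a match to the AP-1 site, TGANTCA, which was found in 2 of the 10 windows (Srxn1 and Prdx1) and in 7.81% of all windows. Among the 5 genes with a core match, 3 were higher in KO, 1 was lower and 1, Srxn1, did not pass. The Srxn1 match lies 28 bases after the start, and Txnrd1 has its match in 1 of its 3 windows. The same letters thus stood in the windows of genes that moved in either direction. A match is only a description of the sequence and is not a bound site.

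Among the tested genes of the set, those of glutathione supply showed the widest split. Slc7a11 (ENSMUSG00000027737, chromosome 3, 49892526 to 50443614, minus strand) encodes the cystine and glutamate exchanger subunit xCT, which brings in the cystine that limits glutathione synthesis. It was at 75.6, 74.2 and 73.5 FPKM in WT and at 31.7, 32.4 and 31.4 FPKM in KO. The groups lay far apart beside the spread within each. Mean levels were 74.4 ± 1.06 FPKM in WT and 31.8 ± 0.510 FPKM in KO (SD, n = 3 each), with a log2 difference of -1.20 (SE 0.0241, limma adjusted p = 5.2e-07), whose absolute size was at the 98.1 percentile of all tested genes. The longest coding transcript of Slc7a11 shares a stretch of 373 bases with the alpha tubulins Tuba1a, Tuba1b and Tuba1c at 95.4 to 96.2% identity, and these were higher in KO (Tuba1b 347 to 357 FPKM in WT and 470 to 480 FPKM in KO), opposite to Slc7a11. How reads in that stretch were assigned is not given in the sources used here.

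The window before the Slc7a11 start holds a different element. The amino acid response element, TGATGNAA on either strand, is bound by ATF4, the factor of the amino acid stress response, and was found in 1 of the 10 windows and in 3.97% of all windows. The 250 bases before the Slc7a11 start are shown because Slc7a11 had the largest difference of the 9 tested genes, with both matches in capitals.
Slc7a11, chr3:50443614-50443863, minus strand: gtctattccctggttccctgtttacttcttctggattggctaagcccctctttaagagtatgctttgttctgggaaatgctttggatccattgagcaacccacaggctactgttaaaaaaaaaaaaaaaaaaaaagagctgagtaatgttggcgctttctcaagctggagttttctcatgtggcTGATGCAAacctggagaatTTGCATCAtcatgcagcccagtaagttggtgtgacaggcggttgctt
The 2 matches face each other, beginning 66 and 47 bases before the start. None of TGACNNNGC was in this window, which says only that these letters are not in it.

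Glutamate cysteine ligase, the next step, is made of a catalytic subunit, Gclc, and a modifier subunit, Gclm, which makes the enzyme more efficient. Gclc (ENSMUSG00000032350, chromosome 9, 77754535 to 77794485, plus strand) was at 20.2, 19.0 and 19.9 FPKM in WT and at 32.7, 32.0 and 32.4 FPKM in KO. Every KO library was higher by more than 10 FPKM. The mean rose from 19.7 ± 0.630 to 32.3 ± 0.363 FPKM, a log2 difference of 0.69 (SE 0.0318, n = 3 each, limma adjusted p = 1.44e-05). Gclm (ENSMUSG00000028124, chromosome 3, 122245557 to 122270732, plus strand) went the other way, at 8.74, 9.04 and 8.26 FPKM in WT and at 7.37, 7.80 and 7.06 FPKM in KO. The groups did not overlap, but the gap between the lowest WT and the highest KO library was smaller than the range within either group. The log2 difference was -0.20 (SE 0.052, limma adjusted p = 0.0212), and it no longer passed when any one of WT replicate 1, WT replicate 2, KO replicate 1 or KO replicate 3 was left out (log2 differences of -0.20, -0.18, -0.20 and -0.17, adjusted p = 0.058 to 0.064). Exons of Gclm overlap Gm17494 on the opposite strand over 296 bases and Gm6061 on the same strand over 244 bases, both under 1 FPKM in every library.

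The balance of the partners within a library does not depend on the scaling of libraries, and was therefore followed next for 5 pairs. Gclm over Gclc was 0.433, 0.477 and 0.415 in WT and 0.225, 0.244 and 0.218 in KO. The modifier subunit thus went from 0.442 ± 0.0317 to 0.229 ± 0.0135 of the catalytic subunit at the mRNA level (SD, n = 3 each). Slc7a11 was also set against Slc3a2, which encodes the heavy chain (CD98) that carries xCT to the membrane and also serves other amino acid transporters. Slc3a2 itself fell from 115 ± 1.76 to 74.3 ± 1.87 FPKM (log2 -0.63, SE 0.026, limma adjusted p = 8.8e-06). Slc7a11 fell more, so that their ratio went from 0.644 ± 0.00469 to 0.429 ± 0.0176. Slc3a2's longest coding transcript contains a short stretch that recurs with at least 95% identity in 143 other genes. With 3 against 3 libraries the exact two-sided permutation test cannot go below 0.1, and it gave 0.1 for both ratios (0.125 after Benjamini-Hochberg adjustment over the 5 ratios).

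**Figure D2:**
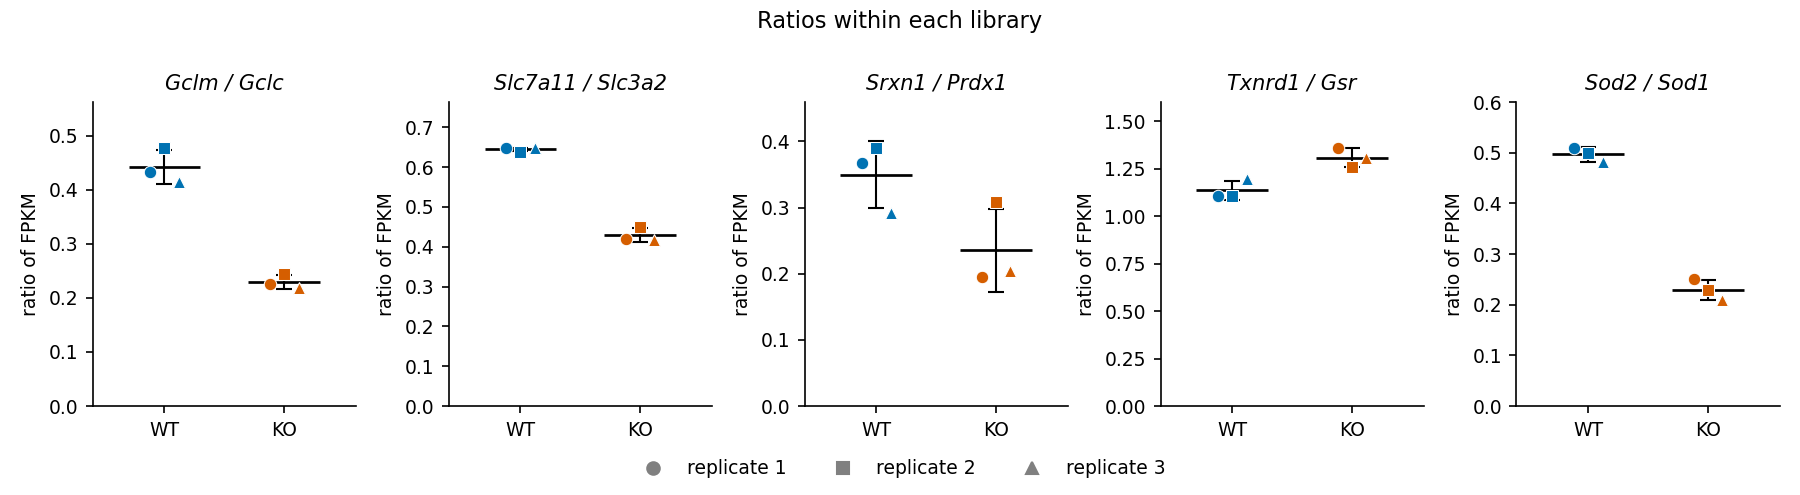
Ratios of FPKM within each library (vertical axes, each from 0) for 5 pairs of genes in WT and KO. Points are libraries, lines the means and bars 1 SD; 4 of the 5 ratios show no overlap between groups, and Srxn1 over Prdx1 overlaps.

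Both reductases were next examined, since they return the 2 thiol carriers to their reduced form with NADPH. Txnrd1 (ENSMUSG00000020250, chromosome 10, 82833951 to 82897712, plus strand), the cytosolic thioredoxin reductase, was at 55.4, 53.7 and 55.9 FPKM in WT and at 60.4, 59.4 and 59.7 FPKM in KO. Its groups did not overlap, yet the change was small, 0.12 on the log2 scale (SE 0.0243, limma adjusted p = 0.00882), its absolute size being at the 37.4 percentile of all tested genes. On the TPM scale the difference was 0.07 and did not pass (adjusted p = 0.0648). Gsr (ENSMUSG00000031584, chromosome 8, 33652523 to 33698163, plus strand), the glutathione reductase, was at 50.2, 48.5 and 46.8 FPKM in WT and at 44.6, 47.2 and 45.6 FPKM in KO. KO replicate 2 lay above WT replicate 3. The log2 difference was -0.08 with a 95% interval of -0.17 to 0.00 (limma adjusted p = 0.109), and on the TPM scale it was -0.13 and passed (adjusted p = 0.0311). The ratio of Txnrd1 to Gsr, which is free of this scaling, was 1.11, 1.11 and 1.19 in WT and 1.36, 1.26 and 1.31 in KO, without overlap (exact permutation p = 0.1, the smallest possible).

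Peroxide removal was represented by Prdx1, an abundant peroxiredoxin, and Srxn1, the sulfiredoxin that repairs overoxidised peroxiredoxins. Prdx1 (ENSMUSG00000028691, chromosome 4, 116685544 to 116700822, plus strand) was the highest of the 10 genes, at 96.8, 97.5 and 129.9 FPKM in WT and at 175, 131 and 172 FPKM in KO. WT replicate 3 and KO replicate 2 came within about 1 FPKM of each other, so the groups only just failed to overlap. The mean rose from 108 ± 18.9 to 160 ± 24.7 FPKM, a log2 difference of 0.56 (SE 0.155, n = 3 each, limma adjusted p = 0.028). The call was lost when any one of WT replicate 1, WT replicate 2, KO replicate 1 or KO replicate 3 was left out (log2 differences of 0.49, 0.49, 0.48 and 0.50, adjusted p = 0.0824 to 0.0838). Prdx1 has processed pseudogenes, Gm21399 and Gm7204, at 98.3 and 97.5% identity over 597 bases, listed at 1.71 to 4.79 FPKM, so its level is uncertain to the extent that reads were split between them.

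Srxn1 (ENSMUSG00000032802, chromosome 2, 152105516 to 152111376, plus strand) was at 35.6, 38.0 and 38.0 FPKM in WT and at 34.3, 40.3 and 35.0 FPKM in KO. KO replicate 2 was the highest of the 6 libraries and the other KO libraries were the lowest. The log2 difference was -0.03 with a 95% interval of -0.19 to 0.13 (limma adjusted p = 0.764). On the linear scale of FPKM + 1 the interval runs from 0.879 to 1.095 times the WT level. Srxn1 over Prdx1 overlapped between the groups, with means of 0.35 ± 0.051 in WT and 0.236 ± 0.0628 in KO (exact permutation p = 0.2).

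Sod2 (ENSMUSG00000006818, chromosome 17, 13006846 to 13040063, plus strand) encodes the manganese superoxide dismutase of mitochondria and is a familiar target of NF-kB. It was at 17.0, 16.2 and 16.7 FPKM in WT and at 7.69, 7.44 and 7.12 FPKM in KO. The lowest WT library was more than 8 FPKM above the highest KO library. The mean fell from 16.7 ± 0.408 to 7.42 ± 0.284 FPKM, a log2 difference of -1.07 (SE 0.0403, n = 3 each, limma adjusted p = 6.38e-06). Its cytosolic counterpart Sod1 was at 33.6 ± 1.19 FPKM in WT and 32.4 ± 1.57 FPKM in KO, a log2 difference of -0.05 with a 95% interval of -0.16 to 0.06 (limma adjusted p = 0.383). The ratio of Sod2 to Sod1 went from 0.497 ± 0.0142 to 0.230 ± 0.0199 without overlap (exact permutation p = 0.1). The 250 bases before the Sod2 start are shown as the window of the other gene that fell more than 2-fold; TGACNNNGC, TGANTCA and TGATGNAA were not found in it.
Sod2, chr17:13007589-13007838, plus strand: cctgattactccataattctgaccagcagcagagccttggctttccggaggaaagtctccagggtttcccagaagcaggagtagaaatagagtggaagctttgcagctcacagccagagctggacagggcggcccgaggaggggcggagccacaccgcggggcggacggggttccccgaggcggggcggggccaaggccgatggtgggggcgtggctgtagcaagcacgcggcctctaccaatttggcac
A stretch of 145 to 193 bases of the longest coding Sod2 transcript recurs in 12 other genes at 95.1 to 96.8% identity. The highest of those with a listed level was Dld, at 148 to 153 FPKM in the libraries of both groups. How reads in that stretch were assigned is not given in the sources used here.

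Nqo1 (ENSMUSG00000003849, chromosome 8, 107388225 to 107403206, minus strand), the quinone reductase often used as a read-out of NRF2 activity, was hardly detected. It was at 0.075, 0 and 0.081 FPKM in WT and at 0.476, 0.284 and 0.486 FPKM in KO. By the depth estimate these are about 2, 0 and 2 fragments in WT and about 11.8, 8.3 and 14.6 fragments in KO. All KO libraries were above all WT libraries, but the WT values lie under the limit that a count of 0 allows (3 fragments, 0.0997 to 0.1232 FPKM per library, counting error only), and the gene was not tested. No fold is given for that reason. Without the filter on low values its log2(FPKM + 1) difference was 0.43 (limma adjusted p = 0.0115).

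**Figure D3:**
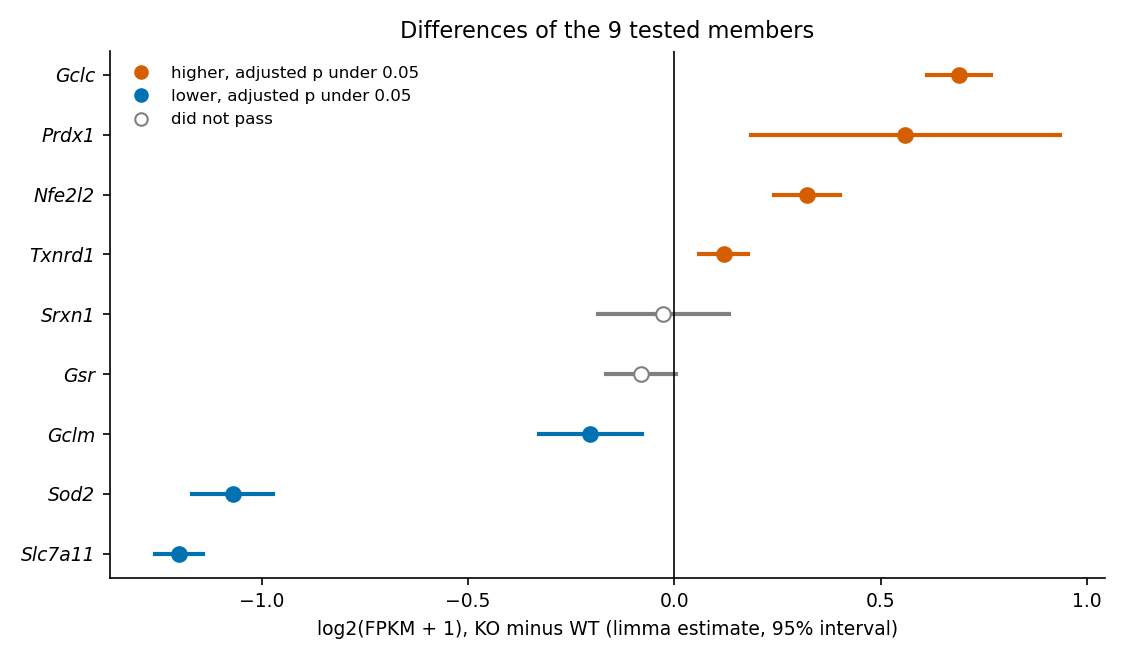
Log2(FPKM + 1) difference, KO minus WT (horizontal axis), of the 9 tested genes with 95% intervals from limma. Filled points passed an adjusted p of 0.05 and open points did not; the points run from 0.69 for Gclc to -1.20 for Slc7a11, and Prdx1 has the widest interval.

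The order of the levels also differed. In WT it ran from Prdx1 through Slc7a11, Txnrd1, Gsr, Srxn1, Nfe2l2, Gclc, Sod2 and Gclm to Nqo1, and of the neighbours only Srxn1 and Nfe2l2 overlapped. In KO it ran from Prdx1 through Txnrd1, Gsr, Nfe2l2, Srxn1, Gclc, Slc7a11, Sod2 and Gclm to Nqo1. There Gsr overlapped Nfe2l2, Gclc overlapped Slc7a11, and Sod2 overlapped Gclm. Slc7a11 thereby went from the second place in WT to a level shared with Gclc in KO. The genes whose centred log2 profile over the 6 libraries was most like that of Slc7a11, among 7372 genes averaging 5 FPKM or more, were Nfkb2, Plk2 and Kdm6b, with a root mean square difference of 0.0284, 0.0287 and 0.0307. Nfkb2, an NF-kB subunit gene, was at 34.0 to 35.5 FPKM in WT and 14.1 FPKM in each KO library.

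To place the 10 genes, 96 further genes of the same chemistry in 6 lists were examined, of which 79 were tested. Of these 61 were called (77.2%), 43 higher and 18 lower in KO, that is 54.4% higher and 22.8% lower beside 24.5% and 18.8% of all tested genes. Their median log2 difference was 0.19. On the TPM scale 38 were higher and 20 lower. Leaving out 3 genes that reached the minimum level only through their higher group, 42 of 76 were higher and 17 lower. The lists were chosen with earlier results of these data known, and the shares are not matched for level. The comparison with all tested genes is therefore a description and not an independent result. None of the lists, described in turn below, changed the side to which its calls leaned under the 4 other scalings run.

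The regulators of NRF2 leaned downward, with 6 of 9 lower in KO, 2 higher and 1 that did not pass. Sqstm1, whose product p62 binds KEAP1 and so frees NRF2, was at 423, 419 and 419 FPKM in WT and at 211, 212 and 207 FPKM in KO (log2 -0.9977, SE 0.0175, limma adjusted p = 3.04e-07), and shares 583 bases with a transcript of Mrnip, itself at 1.33 to 1.93 FPKM. Maff, a small MAF partner of NRF2, fell from 16.6 ± 1.68 to 5.99 ± 0.527 FPKM (log2 -1.33, adjusted p = 6.76e-05). Nfe2l1, the relative of Nfe2l2 that drives proteasome genes, fell from 13.6 ± 0.630 to 9.94 ± 0.398 FPKM (log2 -0.42, adjusted p = 0.000783). Keap1 was at 5.34 to 5.56 FPKM in WT and at 6.15 to 6.86 FPKM in KO, a small rise (log2 0.23, adjusted p = 0.0116), and shares 209 bases with the antisense gene Gm16754, which was under 0.5 FPKM.

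Genes of glutathione supply, turnover and use leaned upward as a list, with 14 of 24 higher, 5 lower and 5 that did not pass. Of the 24, Mgst1 (called higher), Ggct (called lower) and Gstm2 (not called) averaged under 1 FPKM in one group and entered only through the other. Gpx1, the main cytosolic glutathione peroxidase, was at 170 to 171 FPKM in WT and at 254 to 267 FPKM in KO (log2 0.61, limma adjusted p = 6.2e-06). Mgst3, a microsomal glutathione transferase, rose from 4.34 ± 0.468 to 12.4 ± 1.52 FPKM (log2 1.33, adjusted p = 0.000137). Slc3a2, given above, was among the 5 that fell. The upward lean of the list thus stood beside a lower level of both chains of the cystine importer.

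Of 15 tested genes of thioredoxins, peroxiredoxins and their partners, 7 were higher, 2 lower and 6 did not pass. Txn1, the cytosolic thioredoxin that Txnrd1 reduces, rose from 108 ± 1.47 to 163 ± 5.14 FPKM (log2 0.58, limma adjusted p = 1.72e-05). Prdx2 rose from 27.7 ± 0.758 to 38.6 ± 0.618 FPKM (log2 0.46, adjusted p = 6.33e-05), and shares stretches of 176 and 154 bases with transcripts annotated to Junb and Rnaseh2a. Junb was at 70.9 to 73.4 FPKM in WT and 25.4 to 27.0 FPKM in KO, opposite to Prdx2, and Rnaseh2a at 9.90 to 11.9 FPKM in the 6 libraries. Prdx5, a peroxiredoxin of mitochondria and peroxisomes, fell from 40.98 ± 1.39 to 24.8 ± 1.31 FPKM (log2 -0.70, adjusted p = 6.81e-05), and shares 360 bases with a transcript of Trmt112, which was at 24.9 to 25.8 FPKM in WT and 31.7 to 33.8 FPKM in KO, opposite to Prdx5. Members of one enzyme family, including Prdx1, thus moved in both directions.

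NADPH feeds both reductases, and 8 of 11 genes of its supply were higher, 2 lower and 1 did not pass. Idh1, the cytosolic NADP-linked isocitrate dehydrogenase, was at 15.6, 15.7 and 16.5 FPKM in WT and at 40.1, 39.6 and 41.1 FPKM in KO, the clearest rise of the list (log2 1.28, SE 0.033, limma adjusted p = 1.39e-06). Pgd, of the pentose phosphate pathway, rose from 54.0 ± 0.116 to 74.1 ± 1.20 FPKM (log2 0.45, adjusted p = 1.72e-05). Nadk, the kinase that makes NADP from NAD, fell from 74.5 ± 1.501 to 45.7 ± 0.857 FPKM (log2 -0.69, adjusted p = 6.39e-06).

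Quinone, carbonyl, heme and iron genes were higher for 11 of 17, lower for 3 and not called for 3. Ftl1, the ferritin light chain, rose from 1905 ± 20.3 to 2388 ± 5.40 FPKM (log2 0.33, limma adjusted p = 1.09e-05), and its transcript matches 13 other annotated genes, most of them pseudogenes or small RNAs. One of these, the miRNA gene Gm22133, matches over 109 bases at 100% identity. It was listed at 3581 to 4818 FPKM in the 6 libraries, above Ftl1. The longest match, Ftl1-ps1 (910 bases at 99.56% identity), was at 66.6 to 220.6 FPKM, and Ftl2-ps at 110 to 155 FPKM. The level and the difference of Ftl1 are therefore uncertain to the extent that reads were shared. Fth1, the heavy chain of the same ferritin complex, went the other way, at 2576, 2556 and 1789 FPKM in WT and at 1301, 1318 and 1337 FPKM in KO (log2 -0.79, SE 0.139, adjusted p = 0.00503). It was named after its values were seen, because the ferritin chains moved in opposite directions. Blvra, a biliverdin reductase, rose from 30.8 ± 0.613 to 43.7 ± 0.516 FPKM (log2 0.49, adjusted p = 2.61e-05). Ephx1, the microsomal epoxide hydrolase, rose from 2.29 ± 0.194 to 5.25 ± 0.285 FPKM (log2 0.93, adjusted p = 9.8e-05). Hmox1, the inducible heme oxygenase and another well known NRF2 target, was lower, at 142, 137 and 145 FPKM in WT and at 117, 117 and 111 FPKM in KO (log2 -0.30, adjusted p = 0.000531). Of the 3 tested genes for superoxide and hydrogen peroxide beside Sod2, the peroxisomal catalase Cat rose from 45.2 ± 0.777 to 53.3 ± 0.326 FPKM (log2 0.23, adjusted p = 0.000411), Sod1 is given above, and the copper chaperone Ccs differed by 0.04 with a 95% interval of -0.13 to 0.21 (adjusted p = 0.702).

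**Figure D4:**
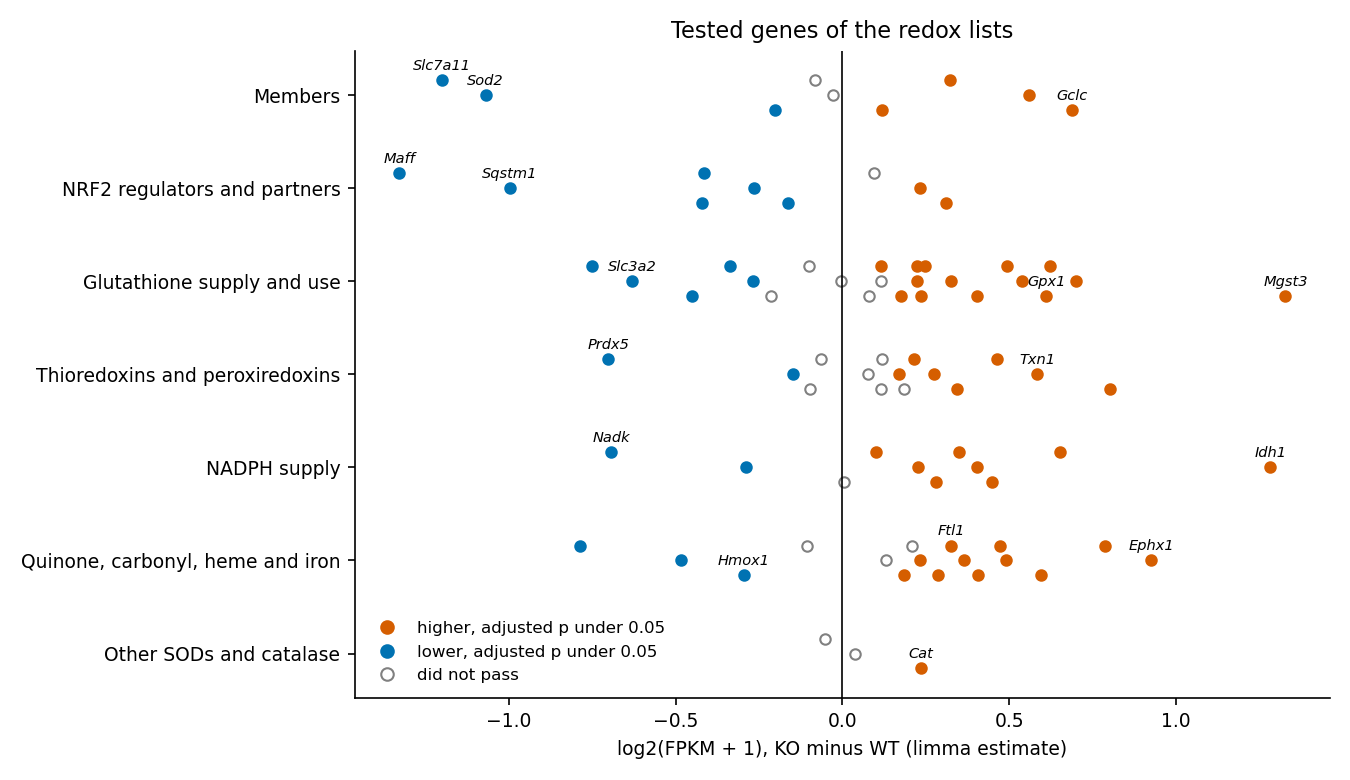
Log2(FPKM + 1) difference, KO minus WT (horizontal axis), of every tested gene in the 10-gene set and in the 6 further lists, 1 row each. Filled points passed an adjusted p of 0.05; the regulators lie mostly left of 0 (6 of 9 lower) and the glutathione and NADPH genes mostly right (14 of 24 and 8 of 11 higher).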

How the data were processed

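RNA of primary microglia was sequenced after co-culture, 3 libraries per neutrophil genotype, and each library's group and number come from its title. One FPKM table, with 55335 Ensembl gene identifiers and a column per library, was deposited by the authors. The submitters' processing notes name fastp 0.17.1, HISAT2 2.1.0, DESeq2 1.18.1 and R 3.4.3. The paper's methods give a different DESeq2 version, and also differ from the labels on the RNA kit, the library kit and the sequencer. The program that made the FPKM values, the genome build and the annotation are not given in the sources used here. GENCODE M21 names were found for 55154 identifiers (99.67%).

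The study tested counts, which were not used here. FPKM values were therefore tested on the log2(FPKM + 1) scale with limma 3.58.1 (R 4.3.3; lmFit, eBayes with a variance trend), KO minus WT without covariates, for genes averaging 1 FPKM or more. Ratios were compared by exact two-sided permutation (SciPy 1.17.1). Only 25.8 to 27.4% of low values were whole multiples of 1 fragment within 0.05 (10% by chance), so no count test was run, and depths are rough. The scripts were tested on simulated data. Alternatives covered the pseudocount, the filter, scaling, centring, the variance model, a replicate block and each library left out.

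The members and lists were chosen with earlier results of these data known. The 10 genes were all named. Of each further list, the 3 tested genes with the smallest p were named, and Keap1, Hmox1, Slc3a2 and Sod1 in any case. Fth1 was added after its values were seen. The genes most like Slc7a11 were the 3 with the smallest profile difference. Motifs, printed sequences, the search for similar transcripts (blastn, at least 95% identity over 100 bases) and the depth reading were chosen after values were seen. Libraries of the same number did not deviate together (correlations of -0.075, -0.052 and -0.005), so they were not treated as pairs. 1 marker gene is not reported here.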

Additional observations from a re-analysis of the deposited data

How the results depend on the processing

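Of 707 comparisons of a result with an alternative, 690 kept their direction and their side of the threshold (counts of calls within 1.5 times, ratios by direction alone). For Slc7a11, Sod2, Gclc and Nfe2l2 this held in every alternative run. Without the filter on low values the Nqo1 difference was 0.43 and passed, and that of Prdx1 was 0.56 and did not (limma adjusted p = 0.0763). More genes were tested there, and the SE of Prdx1 was 0.164 instead of 0.155. On the TPM scale Txnrd1 was at 0.0708 and no longer passed, Gsr was at -0.13 and did, and Ccs was at -0.0075. At a mean of at least 5 FPKM the glutathione list held 12 calls, not 19, fewer genes being tested. With single libraries left out, Gclm ran from -0.24 to -0.17, Prdx1 from 0.48 to 0.70 and Srxn1 from -0.0985 to 0.0155, turning sign without KO replicate 1 (0.0155) or KO replicate 3 (0.0017), and Ccs from -0.0018, without KO replicate 1, to 0.0905. Beyond the smaller number of samples, the cause was not tested. The replicate block, where same numbers share no more than a number, left 4212 calls among all genes instead of 4930, with 7 of the 9 tested members called as before. The exact permutation test of the ratios cannot go below p = 0.1, and the depth leaves Nqo1 near the detection limit.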
